A study of Drosophila melanogaster with 3 samples.

Results

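The genes described here encode the proteins of the mitochondrial ribosome of Drosophila melanogaster. They were taken from the Ensembl annotation as the protein-coding genes whose symbol begins with mRpL or mRpS, together with bonsai and tko, and numbered 75 of 13968 protein-coding genes. By symbol, 47 belong to the large subunit, and the other 28, with bonsai and tko among them, to the small subunit. Binding was measured in whole embryos of mixed sex, collected 0 to 24 h after egg laying, from a transgenic line that makes CG7839 with GFP at its C-terminus. Chromatin was precipitated with an anti-GFP antibody and sequenced in 3 biological replicates of 1 group. No source used here gives the promoter that drives the transgene, and no other genotype, antibody or tissue was analysed here. CG7839 carries the symbol Noc1 in the annotation. The peaks come as a list per replicate, a pooled list, and a shorter IDR list, which applies a limit on irreproducible discovery between replicates. No summit lay within 500 bp of a start of Noc1 in the IDR or pooled list, and only replicate 3 had 1.

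Mitochondrial ribosomes translate the few proteins encoded by mitochondrial DNA, which are core subunits of the respiratory chain. Their RNA is made inside the organelle, whereas all of their proteins are encoded in the nucleus, made in the cytoplasm and imported. Some of these proteins are homologues of bacterial ribosomal proteins and others were added to the ribosome during the evolution of mitochondria. Noc1 is best known from its yeast relative, a nucleolar protein that takes part in making the large subunit of the cytoplasmic ribosome.

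The peak lists give the position of each summit and a signal value that ranks it. The sequences under the strongest summits come first, because what they hold and lack can be read directly. They are the 7 strongest summits of the IDR list that lie near these genes, outside any exon and on arm 2L, 3L or 3R. Each runs 5′ to 3′ on the strand of the gene named and covers the 101 bp centred on the summit, from the RefSeq genome on dm6 coordinates. Capitals mark TTAATT or its reverse complement AATTAA, letters that were picked after the sequences had been read.
mRpS10 (chr3R:15229486-15229586, plus strand): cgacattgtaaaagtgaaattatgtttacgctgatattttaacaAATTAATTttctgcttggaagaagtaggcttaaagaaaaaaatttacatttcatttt
mRpS23 (chr2L:13835404-13835504, minus strand): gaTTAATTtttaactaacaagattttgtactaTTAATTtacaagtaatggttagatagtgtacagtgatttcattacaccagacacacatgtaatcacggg
mRpL24 (chr2L:4945450-4945550, minus strand): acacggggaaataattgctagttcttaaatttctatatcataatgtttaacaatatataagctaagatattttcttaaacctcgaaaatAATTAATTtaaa
mRpL20 (chr3L:13018081-13018181, minus strand): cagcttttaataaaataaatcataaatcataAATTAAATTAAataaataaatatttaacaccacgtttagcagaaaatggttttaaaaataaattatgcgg
mRpS2 (chr2L:4850509-4850609, minus strand): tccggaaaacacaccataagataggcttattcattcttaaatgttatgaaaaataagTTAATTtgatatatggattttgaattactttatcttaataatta
mRpS6 (chr3L:4364383-4364483, plus strand): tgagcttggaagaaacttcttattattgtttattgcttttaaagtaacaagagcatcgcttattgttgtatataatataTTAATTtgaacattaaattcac
mRpS7 (chr2L:10386439-10386539, plus strand): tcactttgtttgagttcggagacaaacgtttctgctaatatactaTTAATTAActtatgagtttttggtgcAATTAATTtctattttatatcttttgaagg

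All 7 windows are rich in A and T. Their GC content ran from 18.8% at mRpL20 to 29.7% at mRpS23 and each holds the capitalised letters. None of the 7 holds the DRE (TATCGATA, the site of the factor DREF), Motif 1 or the core promoter motifs Ohler 6 and Ohler 7. The stronger summit of mRpL41, which is not shown, had Ohler 6 within 100 bp. Over all 30 genes of the family with an IDR summit, 14 windows (46.7%) held TTAATT on either strand and 16 did not. This share holds the windows that the letters were picked from. Outside the 7 windows shown, 7 of 23 (30.4%) held them, near the 27.1% of 2412 IDR summits within 500 bp of any protein-coding start and the 25.9% of all 8188 IDR summits. At points 1000 bp to either side of the members' summits the share was 16.7% of 60 windows. The median GC content was 27.7% at the members' summits, 30.7% at all promoter summits, 29.7% at all IDR summits and 45.0% at the points to either side of the members' summits, and the part of base composition in these shares was not tested.

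Many genes of the family start head to head with a neighbour across a very short gap, and 4 such gaps without an IDR summit are shown. Each is the whole sequence between the start of the gene named and the start of its neighbour on the other strand, written on the strand of the gene named. Capitals mark Motif 1 at mRpL48, Ohler 6 at mRpL15, and CGATA, the core of the BEAF-32 site, at mRpL46 and mRpS18C, on either strand. Other gaps as short without an IDR summit, such as those of mRpS14 and bonsai, are not shown. The 4 gaps do not stand for them.
mRpL46 (chr3L:1777412-1777438, plus strand): CGATAaCGATAactgtgccgcaaatca
mRpL15 (chr3L:20436210-20436249, minus strand): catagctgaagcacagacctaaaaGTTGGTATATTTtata
mRpL48 (chr2L:1710422-1710461, plus strand): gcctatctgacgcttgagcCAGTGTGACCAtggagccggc
mRpS18C (chr3R:30423930-30423973, plus strand): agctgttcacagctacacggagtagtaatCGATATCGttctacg

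Of the 75 genes, 30 had an IDR summit within 500 bp of a transcript start (40.0%, Wilson 95% interval 29.7 to 51.3), against 22.8% of all protein-coding genes. In the replicates' own lists, cut to the 8188 strongest peaks, 30, 30 and 38 members had a promoter summit in replicates 1, 2 and 3. The same lists gave 22.8%, 25.1% and 26.4% of all protein-coding genes. The members' share thus averaged 43.6% ± 6.16 (SD, n = 3), and that of all protein-coding genes 24.7% ± 1.84 (SD, n = 3). In the pooled list of 30000 summits, 35 members had a promoter summit (46.7%), against 37.6% of all protein-coding genes. Intervals cover counting error over genes, and no test between gene sets was made. In whole embryos, a site bound strongly in a few cells and one bound weakly in many cannot be told apart.

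Most of these summits sat between the gene and a neighbour that starts on the other strand, and more often closer to the neighbour. Counting a summit only where no other protein-coding start was nearer, 13 members remained (17.3%, interval 10.4 to 27.4), against 18.0% of all protein-coding genes. By this rule the members' share was near the background. In the replicates' own lists it was 21.8% ± 2.04 for the members and 19.2% ± 1.33 for all protein-coding genes (SD, n = 3 each). Of the 17 others, all had their summits nearest the start of a divergent neighbour. Cytoplasmic ribosomal protein genes, the family most like this one by function, are set beside it with no test: 73 of 93 had an IDR summit (78.5%), and in all 73 a summit lay nearest the gene's own start or was equally near to both.

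**Figure D1:**
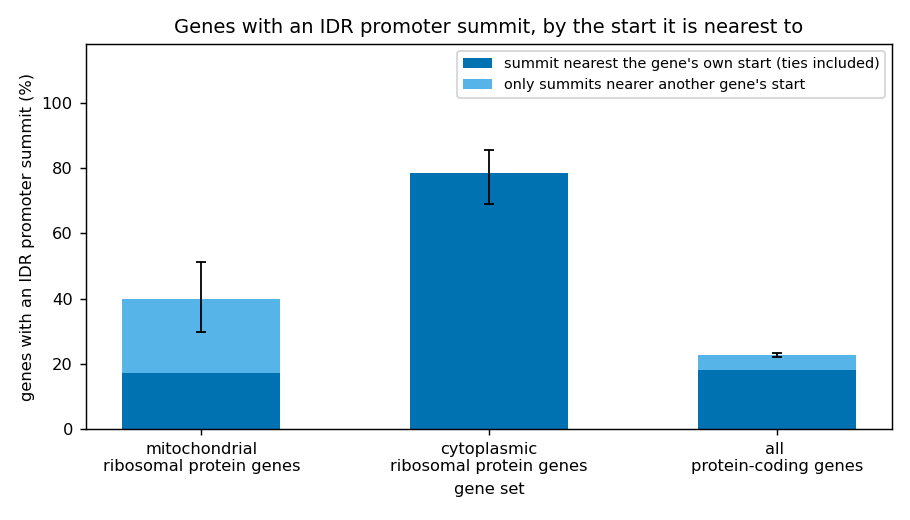
Share of genes with an IDR promoter summit in 3 gene sets, split by whether a summit lies nearest the gene's own start (dark) or only nearer to another gene's start (light), with Wilson 95% intervals on the whole share. For mitochondrial ribosomal protein genes the dark part is 17.3% of a total of 40.0%, and for cytoplasmic ribosomal protein genes it is the whole 78.5%.

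Head-to-head arrangement was common in the family. A protein-coding neighbour with a start on the opposite strand lay at most 1000 bp upstream of 59 members (78.7%), against 36.2% of all protein-coding genes and 60.2% of cytoplasmic ribosomal protein genes. The median gap between the starts was 281 bp for the members and 298 bp for all protein-coding genes with such a neighbour. Of the 59 members, 28 had an IDR summit (47.5%, against 35.4% of all genes so arranged). Of the 16 with no such neighbour, 2 had one (12.5%). In the 28 head-to-head genes with a summit it lay a median of 160 bp from the member's start and 126 bp from the neighbour's, and in 27 of them the neighbour had a start within 500 bp of it too. A summit nearest the own start was found in 11 of the 28 (39.3%), against 62.8% of the 1786 protein-coding genes with a divergent neighbour and an IDR summit and all 47 such cytoplasmic ribosomal protein genes.

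Counts differed with the width of the gap, in classes set with the values known. With a gap under 100 bp, 5 of 19 members had an IDR summit (26.3%), against 27.4% of all protein-coding genes in that class. Gaps of 100 to 299 bp gave 10 of 15 members (66.7%, interval 41.7 to 84.8), against 36.2%, and gaps of 300 to 499 bp gave 12 of 20 (60.0%, interval 38.7 to 78.1), against 45.9%. Gaps of 500 to 1000 bp gave 1 of 5, against 28.9%, and genes with no divergent start within 1000 bp gave 2 of 16, against 15.7%. Had the members in each class the share of all protein-coding genes in it, 23.8 members would have an IDR summit, where 30 had. With the share of all protein-coding genes and no classes the number would be 17.1. For summits nearest the own start, where 13 members had one, the numbers would be 15.2 and 13.5. By class, gaps under 100 bp gave such a summit in 1 of 19 members (5.26%), against 15.4% of all protein-coding genes. Gaps of 100 to 299 bp gave 1 of 15 (6.67%), against 20.3%, and gaps of 300 to 499 bp gave 8 of 20 (40.0%), against 28.0%. Gaps of 500 to 1000 bp gave 1 of 5, against 23.5%, and genes with no such start gave 2 of 16, against 15.6%.

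**Figure D2:**
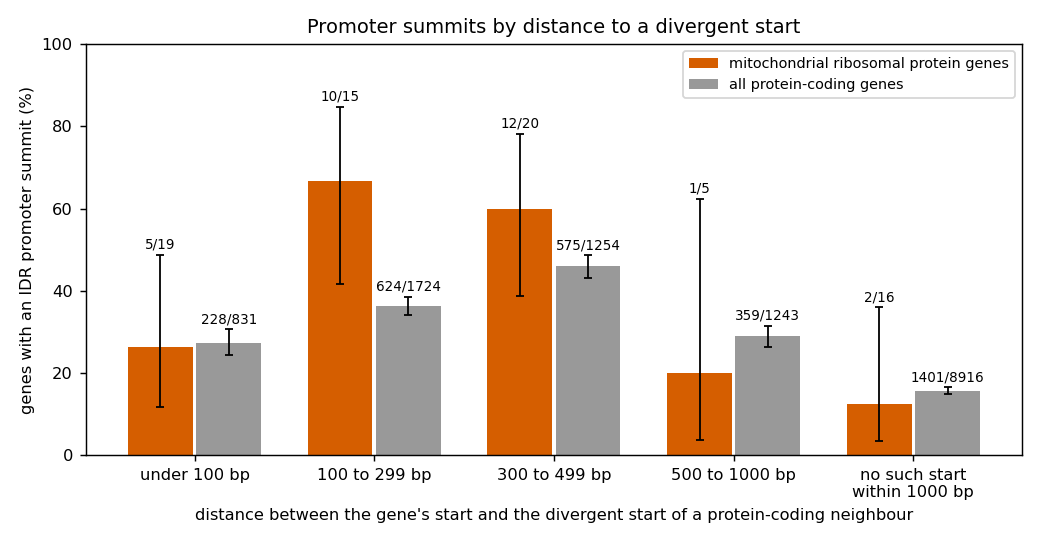
Share of genes with an IDR promoter summit by the distance to the divergent start of a protein-coding neighbour, for mitochondrial ribosomal protein genes (orange) and all protein-coding genes (grey), with Wilson 95% intervals and counts above the bars. The members stand above all genes at gaps of 100 to 299 bp (66.7% against 36.2%) and close to them under 100 bp and where no such start is near. Summits nearer to a neighbour's start are included. At gaps of 100 to 299 bp, 6.67% of members had a summit nearest their own start, against 20.3% of all protein-coding genes.

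In 22 of the 30 genes with an IDR summit it lay between both starts. In mRpL11, mRpL18, mRpL27, mRpL51 and mRpS16 it lay past the neighbour's start, and their gaps were 20 to 126 bp. In mRpL23 it lay 61 bp downstream of the nearest of that gene's 3 starts, and the other 2 genes, mRpL13 and mRpL19, have no divergent start within 1000 bp. Upstream summits made up 29 of 30 (96.7%), against 85.9% of all protein-coding genes with an IDR summit, with a median position of -154 bp for the members and -150 bp for all.

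**Figure D3:**
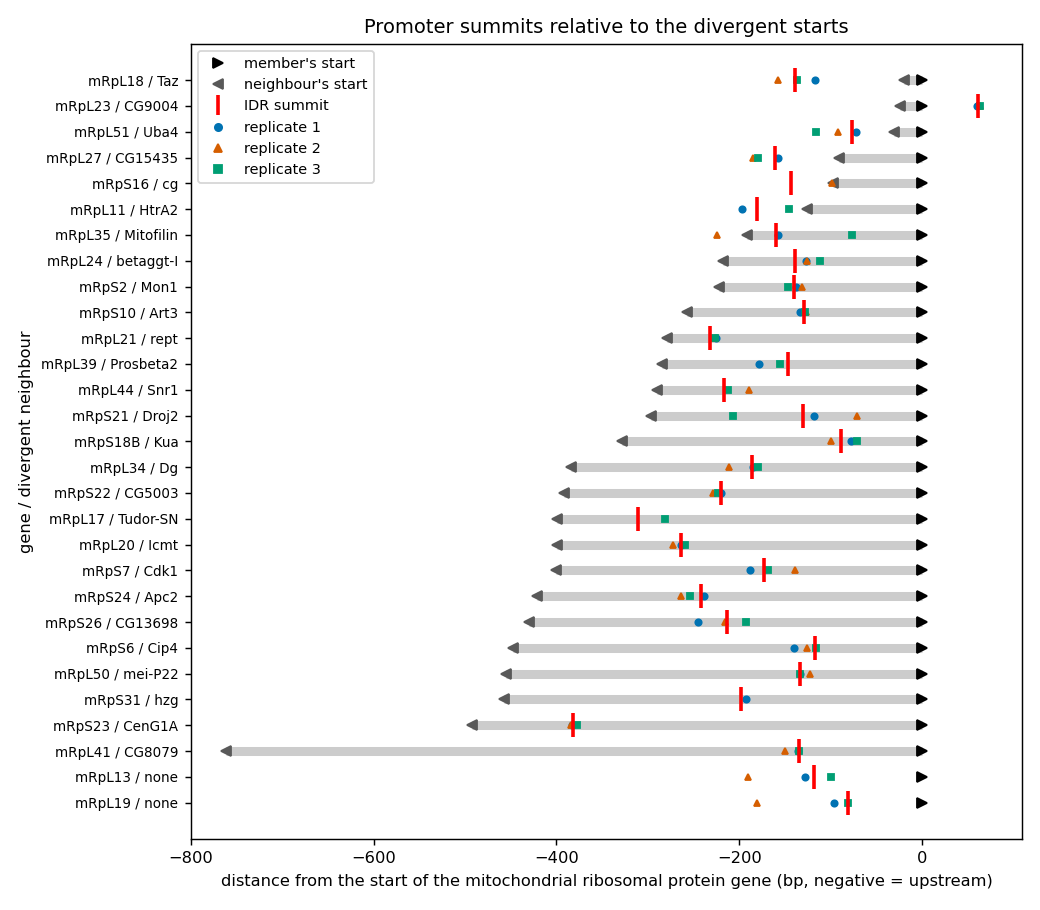
Summits of 29 of the 30 genes with an IDR promoter summit (mRpL37 is not drawn), each row drawn from the gene's own start (black arrow, 0) to the start of its divergent neighbour (grey arrow), ordered by the gap. Red bars are IDR summits and coloured points the matching summits of the replicates within 100 bp. At mRpL11, mRpL18, mRpL27, mRpL51 and mRpS16 the red bar lies left of the neighbour's start, and in most other rows it lies between the starts.

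The family held some of the strongest peaks of the experiment, all found in every replicate. The mRpL41 peak (2R, summit 15217752, 135 bp upstream) ranked 5 in the IDR list and 3, 5 and 5 in replicates 1, 2 and 3. mRpL41 encodes a large-subunit protein with no bacterial homologue, and the start of its divergent neighbour CG8079 lies 762 bp away, the widest gap among the 28 pairs with a summit. The mRpS10 peak (3R, summit 15229536) ranked 6 in the IDR list and 5, 6 and 6 in the replicates. It lies 129 bp from the start of mRpS10, a homologue of bacterial S10, and 128 bp from that of Art3, a protein arginine methyltransferase gene. The mRpS23 peak ranked 22, 19 and 17 in the replicates and lay 382 bp from mRpS23 but 110 bp from CenG1A, which encodes a GTPase-activating protein for Arf. At mRpL23, whose bacterial homologue lines the exit of the peptide tunnel, the ranks were 36, 68 and 53. In every replicate each of these 4 genes ranked 68 or better.

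A second tier was formed by mRpL24, mRpL20 and mRpS2. The mRpL24 peak ranked 241, 275 and 228 in replicates 1, 2 and 3 (mean 248 ± 24.3, SD, n = 3) and lay 139 bp from mRpL24 and 79 bp from betaggt-I, which encodes a subunit of a protein prenyltransferase. The mRpL20 peak ranked 213, 322 and 265 (267 ± 54.5) and lay 264 bp from mRpL20 and 135 bp from Icmt, a methyltransferase that acts on prenylated proteins. Bacterial L20 and L24 are early-binding proteins in the assembly of the large subunit. The mRpS2 peak ranked 359, 504 and 514 (459 ± 86.7) and lay 140 bp from mRpS2 and 82 bp from Mon1, which encodes part of the exchange factor for Rab7. In all 3 pairs the neighbour's start was the nearer one in the IDR list.

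Among small-subunit genes with the IDR summit nearest their own start, mRpS6 ranked 980, 1197 and 991 in the replicates (1056 ± 122, SD, n = 3). Its summit lay 117 bp upstream of its start and 331 bp from Cip4. The mRpS7 peak ranked 979, 1307 and 1354 (1213 ± 204), 173 bp upstream and 227 bp from Cdk1, the mitotic kinase gene. Bacterial S7 organises the head of the small subunit. The mRpS18B peak ranked 2425, 2781 and 2789, 89 bp upstream. The mRpS26 peak ranked 1953, 3047 and 2472, 213 bp upstream and 217 bp from CG13698. In replicate 1 its summit lay 245 bp upstream in a gap of 430 bp, nearer to CG13698. The mRpS21 peak ranked 2938, 4405 and 7258 beside Droj2, a co-chaperone gene. In replicate 3 its summit lay 207 bp upstream in a gap of 297 bp, nearer to Droj2. The mRpS22 gene was the only one of the 30 with 2 IDR summits, one 220 bp upstream (IDR rank 2463) and nearer to CG5003, the other 21 bp upstream (rank 4828). The mRpS31 peak (IDR rank 6138) had a match within 100 bp in replicate 1 alone. Farther from it, replicate 2 had a promoter summit 316 bp upstream (rank 9755) and replicate 3 one 49 bp upstream (rank 4673).

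The large-subunit genes with the summit nearest their own start, apart from mRpL41 and mRpL23, were mRpL34, mRpL19, mRpL50 and mRpL13. The mRpL34 peak ranked 1310, 2432 and 1676 in replicates 1, 2 and 3, 186 bp from mRpL34 and 198 bp from Dg, the dystroglycan gene. In replicate 2 its summit lay 211 bp upstream in a gap of 384 bp, nearer to Dg. The mRpL19 peak ranked 4679, 6051 and 4607, 81 bp upstream, and mRpL50 ranked 5772, 6876 and 6453 beside mei-P22, a gene of meiotic recombination. mRpL13 shares its start with a transcript of CG10602 on the same strand, so its peak, ranked 7578, 17211 and 7168, is equally near to both. These genes spread from the upper part of the list to its lower end.

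The remaining 12 genes with a summit nearest a divergent neighbour had IDR ranks from 1801 (mRpL37) to 7898 (mRpS16), and their neighbours have varied functions. The mRpL37 peak ranked 1297, 2323 and 2864 in the replicates. The mRpS24 peak ranked 1906, 2690 and 2255 and lay 179 bp from Apc2, a gene of the beta-catenin destruction complex. The mRpL44 protein is related to RNase III. Its peak ranked 2335 and 2678 in replicates 2 and 3, had no match in replicate 1, and lay 73 bp from Snr1, which encodes a subunit of the Brahma chromatin-remodelling complex. Of the rest, mRpL21 is paired with rept, a reptin ATPase gene, mRpL39 with Prosbeta2, a proteasome subunit gene, mRpL17 with Tudor-SN, mRpL27 with CG15435, mRpL51 with Uba4, and mRpS16 with cg. Another 3 pairs join 2 mitochondrial genes: mRpL11 with HtrA2, a mitochondrial protease gene, mRpL18 with Taz, which encodes the cardiolipin-remodelling enzyme tafazzin, and mRpL35 with Mitofilin, a gene of inner-membrane folding. Among the 30 genes, the IDR rank of mRpL11 was 3247, that of mRpL35 6975 and that of mRpL18 7810. The replicate 3 summit of mRpL35 lay 76 bp upstream in a gap of 192 bp, nearer to mRpL35. In replicate 2 the strongest promoter summit of mRpL17 (rank 7430) lay 137 bp upstream in a gap of 399 bp, nearer to mRpL17. That of mRpS16 in replicate 3 (rank 4318) lay 42 bp upstream in a gap of 97 bp, nearer to mRpS16. Neither counted as a match within 100 bp of the IDR summit.

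The ranks of the family as a whole were like those of other genes with an IDR promoter summit. The median IDR rank was 2528 for the 30 members (lowest 5, highest 7898) and 2860 for all 3187 such genes, and 63.3% of the members against 63.8% of all lay in the upper 4094 peaks. A matching summit among the strongest peaks of all 3 replicates was found for 20 of 30 (66.7%), against 73.1% of all. In the full replicate lists 24 of 30 had a match in all 3. The weakest, mRpS16 (IDR rank 7898), had 1 match, in replicate 2 at rank 10705, below the strongest 8188. Replicate 3 had a promoter summit at rank 4318, 42 bp upstream of mRpS16 and just over 100 bp from the IDR summit, so it was not counted as a match.

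**Figure D4:**
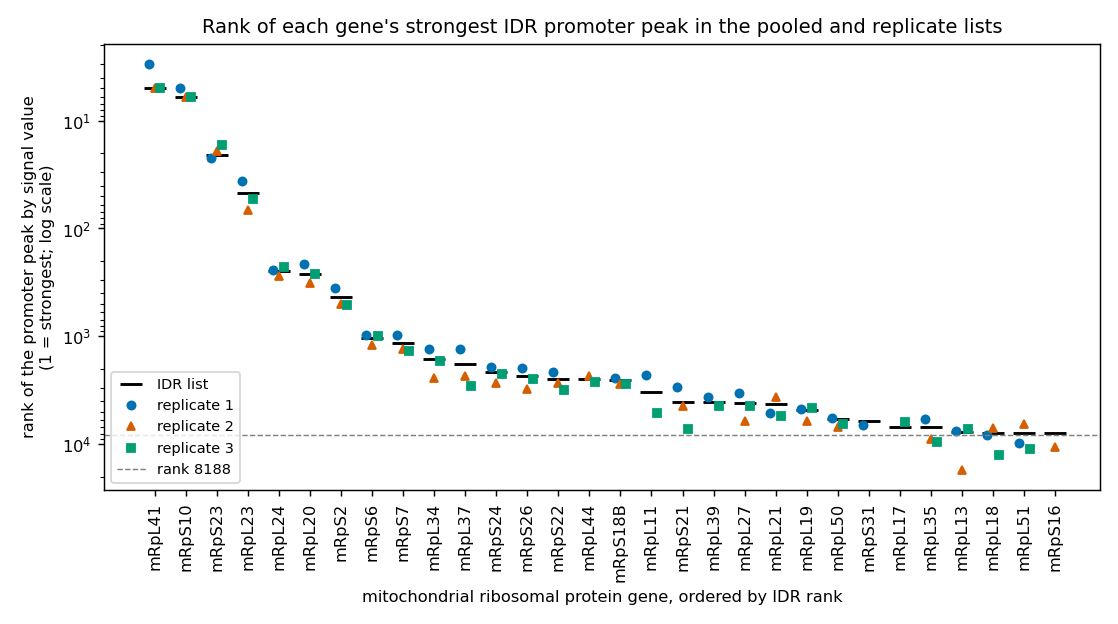
Rank of the strongest IDR promoter peak of each of the 30 genes, in the IDR list (black bars) and in replicates 1, 2 and 3 (coloured points), on a log axis with rank 1 at the top. From mRpL41 to mRpS2 the replicates lie close together, and points missing at mRpL11, mRpL39, mRpL44, mRpS31, mRpL17 and mRpS16 are replicates with no summit within 100 bp.

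Against the 22.8% of all protein-coding genes, homologues of bacterial proteins had an IDR summit in 20 of 47 cases (42.6%) and proteins without one in 10 of 28 (35.7%). Large-subunit genes had one in 18 of 47 cases (38.3%) and small-subunit genes in 12 of 28 (42.9%), set against the same 22.8%. The first grouping goes by protein family and the second by gene symbol alone, with bonsai and tko counted as small-subunit genes.

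The 45 genes without an IDR promoter summit fell into 3 groups. In the pooled list alone 5 had one: mRpL49 (pooled rank 11155, 161 bp upstream), mRpL55 (11512, beside ATPsynD, an ATP synthase subunit gene), mRpS5 (15750), mRpL2 (16413) and mRpL22 (17251). In replicate lists alone were another 20, of which 5 had a summit in the list of replicate 1, 12 in that of replicate 2 and 16 in that of replicate 3. Over all members, the full lists of replicates 1, 2 and 3 held a promoter summit for 49.3%, 58.7% and 68.0%. The same lists gave 37.8%, 43.5% and 46.4% of all protein-coding genes. The last 20 had no promoter summit in any of the 5 lists, a count given without its share over all protein-coding genes. They are bonsai, tko, mRpL3, mRpL9, mRpL10, mRpL15, mRpL16, mRpL36, mRpL38, mRpL40, mRpL42, mRpL43, mRpL45, mRpL46, mRpL48, mRpS9, mRpS14, mRpS30, mRpS34 and mRpS35. bonsai and tko encode the homologues of bacterial S15 and S12, and tko is known from a bang-sensitive mutant.

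Some genes had strong replicate summits with no counterpart in the pooled list. Of 33 members with a promoter summit among the strongest peaks of 2 or more replicates, 6 had none in the pooled list (18.2%), against 10.1% of 3415 protein-coding genes. They were mRpL1 (ranks 6649 and 6165 in replicates 1 and 3), mRpL4 (3107 and 3126 in replicates 2 and 3), mRpL47 (5571 and 6265 in replicates 2 and 3), mRpL53 (4823 and 4336 in replicates 2 and 3), mRpS29 (4069 and 5067 in replicates 2 and 3) and mRpL32. mRpL32 had a promoter summit in all 3 replicates, at ranks 8469, 7738 and 5198 and 106, 161 and 98 bp upstream, while the nearest pooled summit lay 1352 bp upstream. The IDR peaks are a subset of the pooled ones, so these genes are absent from both lists.

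None of the 12 members on X had an IDR promoter summit, and 3 counts out of 12 set an upper limit of 25% on their share (24.2% by the Wilson interval), against 23.1% of the 2196 protein-coding genes on X. On 2L 8 of 12 members had one, against 22.0% of all protein-coding genes there, on 3L 9 of 17 against 25.3%, on 3R 9 of 21 against 23.2%, and on 2R 4 of 13 against 21.2%. A divergent start lay within 1000 bp of 9 of the 12 on X. The window left out 2 of the 12 by a few base pairs: the nearest IDR summit to mRpS25 lay 504 bp upstream of its start (rank 4110) and that to mRpL33 510 bp upstream (rank 8143). The farthest summits inside the window were those of mRpL17 at 311 bp and mRpS23 at 382 bp. In the pooled list 2 of the 12, mRpL22 and mRpL49, had a promoter summit (16.7%), against 41.1% of all protein-coding genes on X. In any list 6 of the 12 had none, a count given without its share over all protein-coding genes on X.

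The DRE and Ohler 7 were found in a larger share of the family's promoters than of all promoters, and in about equal shares of members with and without an IDR summit. In the window from 250 bp before to 50 bp after any transcript start, on both strands, 17 members had a DRE (22.7%), against 10.2% of all protein-coding genes. The DRE was in 6 of 30 members with an IDR summit and in 11 of 45 without one (24.4%). Ohler 7 was in 18 members (24.0%), against 11.1% of all, with 23.3% of members that had an IDR summit and 24.4% of those that did not. CGATA, which every DRE contains, was in 13 of 30 members with an IDR summit (43.3%) and in 33 of 45 without (73.3%). It was in 62.3% of all protein-coding genes with an IDR summit and in 53.1% of all protein-coding genes. Within 100 bp of the summits themselves, CGATA was found at 11 of the 30 members (36.7%), against 33.3% of all promoter summits. GAGA repeats (GAGAG) were in 14 members (18.7%), against 36.3% of all. Motif 1 was in 6 members against 4.95% of all protein-coding genes, the Myc E-box (CACGTG) in 5 (6.67%) against 5.33%, and the ETS core (CCGGAAG) in 0, which allows up to 4%, against 1.42%. The CCAAT box was in 46.7% of members against 53.4% of all protein-coding genes, the Pho site (GCCAT) in 37.3% against 47.9%, and the TCT initiator in 32.0% against 43.6%. A gene with more transcript starts has more windows to search, and its part in these shares was not tested.

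Within 100 bp of the 30 summits themselves, a DRE was found at mRpL19 and mRpS18B (6.67%, against 5.64% of all promoter summits). Ohler 7 was at mRpL17, mRpL21 and mRpL27 (3 of 30, against 7.59%) and Ohler 6 at mRpL41 (3.33%, against 0.954%). Motif 1 was at none, which allows up to 10%, a limit that includes the 1.62% of all promoter summits. The median GC content of the promoter window was 32.9% in members with an IDR summit, 37.2% in members without one and 37.9% in all protein-coding genes. A match is a string of letters and not evidence of binding.

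Other nuclear genes of mitochondrial translation and transcription were counted by the same rule. Of 38 such genes found in the annotation, 10 had an IDR promoter summit (26.3%, against the 22.8% of all protein-coding genes above), and 7 of 38 had one nearest their own start, where 18.0% of all protein-coding genes had. Among translation factors, 2 of 9 had one, the elongation factor gene mEFG1 (IDR rank 6250, 183 bp upstream) and the release factor gene mRF1 (7580). Among mitochondrial aminoacyl-tRNA synthetases, 5 of 16 had one: ProRS-m (2429), CysRS-m (4128), ArgRS-m (4539), Slimp (7650), a relative of seryl-tRNA synthetase, and LeuRS-m (7719). Among genes of mitochondrial transcription and RNA, 3 of 13 had one: mTerf5 (3007), mtTFB1 (5602) and rswl (5659). The best rank among these 10 genes was 2429, at ProRS-m. Among the 30 ribosomal members with an IDR promoter summit, a larger set, the best was 5.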

How the data were processed

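Peaks of GFP-tagged CG7839 were deposited as lists on dm6, 1 per replicate, 1 pooled and 1 that applies a threshold on irreproducible discovery (IDR). Per the text files deposited beside them, each replicate list was made from that replicate's alignments and 1 control that the replicates share, the pooled list from all 3 alignments with the control, and the IDR list from these lists. With the aligner, peak caller and thresholds not given in the sources used here, effects of these steps could not be examined. Read depth is unknown, and control reads were not analysed here. The deposited signal value has no stated scale and served here for ranks alone. The −log10 q value that the authors deposited holds 1 constant in the IDR list, so it was left aside. Each of the 8188 IDR peaks equals the pooled peak of its rank.

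Genes and starts came from Ensembl release 115 and sequence from RefSeq, both on dm6 coordinates. A summit, taken at the peak start plus the deposited offset, was assigned to every gene with a transcript start within 500 bp. The 2 to 7 summits per list past their interval were placed on its last base. A summit was nearest its own gene where no other protein-coding start was closer, ties included. Replicate lists of 30000 peaks were cut to their 8188 strongest where said, and summits within 100 bp were matched. Shares have 95% Wilson intervals (scipy 1.17.1, Python 3.11.15). The assignment was tested on simulated data with planted summits. No p-values were computed, since there is 1 group. Members, lists, gap classes and motifs were chosen with earlier results of these data known. Genes named are all members with an IDR promoter summit, those in the pooled list alone, those in no list, members strong in replicates but not pooled (chosen after seeing values), and listed pathway genes with an IDR summit; 4 of 42 pathway names found no gene.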

Additional observations from a re-analysis of the deposited data

How the results depend on the processing

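Other promoter windows, stricter lists and other rules for nearness changed few of the counts of members by more than 1.5 times. In the upper 4094 IDR peaks, 19 members had a promoter summit, against 14.6% of all protein-coding genes, and 8 (10.7%) had one nearest their own start, against 10.9%. With a 250-bp window 27 members had one, against 17.4% of all protein-coding genes, with a 1000-bp window 32 against 26.9%, and with only the most upstream start of each gene 30 against 20.3%. Leaving out 1 replicate, which keeps IDR summits with strong matches in both others and so shortens the list, gave 21 to 23 members (28.0% to 30.7%), against 17.8% to 18.6% of all protein-coding genes. By nearness to the own start it gave 10 to 11 members (13.3% to 14.7%), against 13.7% to 14.3% of all. The median position of the members' promoter summits was then -161 to -140 bp. With a 1000-bp window it was -160 bp. Summits within 50 bp of equal distance, given to both genes, left 18 members nearest their own start (24.0%), against 19.6% of all protein-coding genes. Matches in all 3 replicates numbered 14 with 50% reciprocal overlap and 24 in the full lists. No paired analysis was possible because the labels give 1 group. With 75 genes the intervals on the members' shares are wide, and without read counts the depth behind a missing summit is unknown.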
